A study of Mus musculus with 4 samples.

Results

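Luminal cells of the anterior prostate (AP) that were sorted as RFP- were compared between castrated and intact mice within 1 droplet-based scRNA-seq library, the second of 3 adult runs. The mice were P2-*Runx1*:RFP reporters on the ICR (CD-1) background, in which RFP is driven by the proximal P2 promoter of *Runx1*, and were older than 8 weeks. Castrated animals had been castrated for more than 4 weeks, and both groups were pools of several mice with the same reporter. Dissociated EPCAM+ cells of each lobe were sorted into RFP+ and RFP- fractions, tagged with lipid-anchored MULTI-seq barcodes and loaded together, so that both groups shared 1 library and its free RNA. The comparison held 230 of the 11674 cells in the files of the adult runs: 71 castrated and 159 intact AP RFP- luminal cells. With 1 pool of animals per group there was no replicate of castration and no test. All intervals below are 95% intervals that cover counting error only, and intact AP RFP- luminal cells of runs 1 and 3 (87 and 51 cells) show how far intact pools lie apart. In sums of cells, fewer cells of a type and less RNA per cell cannot be told apart. The sort itself depends on castration, as the study reported a larger share of RFP+ epithelial cells in castrated mice. Beside the 71 castrated and 159 intact RFP- luminal cells, run 2 held 253 and 123 AP RFP+ luminal cells. Castrated RFP- cells may thus be another part of the luminal cells than intact ones, which cannot be told apart from a change within cells.

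Luminal cells line the prostatic ducts and secrete the proteins of the seminal fluid. Their secretory genes, such as probasin (*Pbsn*), depend on androgens. Castration removes testicular androgen, and the gland then shrinks while a part of its luminal cells persists.

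The groups rest on the oligonucleotide counted in each cell, shown here with the 8 bases that name the sample in capitals (bases 22 to 29 of 59):
Intact AP RFP-: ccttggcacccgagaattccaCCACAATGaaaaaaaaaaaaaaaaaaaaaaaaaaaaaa
Castrated AP RFP-: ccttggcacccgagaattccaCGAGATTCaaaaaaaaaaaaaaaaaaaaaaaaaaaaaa
A cell belonged to a population when its count of 1 barcode was at least 3 times that barcode's median over the library and at least 2 times the ratio of any other barcode. The median count was 8 for the castrated and 27 for the intact barcode. The lowest ratios inside were 3.125 and 3, and the highest just outside were 2.875 and 2.963. Of the luminal cells with the castrated barcode on top, 40 of 111 stayed unassigned, against 107 of 266 with the intact barcode on top. The barcode of intact DLP RFP+ cells had a median of 0 in this run and was skipped.

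Luminal cells were selected on measured transcripts: at least 1 *Epcam* UMI, no *Ptprc* UMI, at least 5 *Krt8* and *Krt18* UMIs and under 3 *Krt5* and *Krt14* UMIs per 10000. The lowest keratin sum inside was 5.66 per 10000 and the highest outside 4.58, and the basal keratin sums next to the limit were 2.93 inside and 3.71 outside. Of the AP RFP- cells that passed the quality filter and were assigned, 71 of 95 castrated and 159 of 251 intact cells met the rule. Luminal markers that the rule did not use were present in both groups: *Cd24a* had a UMI in 68 of 71 castrated and 152 of 159 intact cells, and *Dpp4* in 39 and 114. Immune cells of the run had a UMI of these genes in 36.3% and 42.0% of cells. *Krt8* and *Krt18* themselves, which chose the cells, stood at 1622 and 2963 UMIs per 1000000 (CPM) in castrated and 547 and 1509 CPM in intact cells.

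The castrated cells held 1648535 UMIs (median 14095 per cell and 3246 genes) and the intact cells 3781842 (median 22272 and 4098 genes). Median mitochondrial shares were 3.19% and 2.81%. Run 2 had 6034 cells in its file, of which 4398 passed the filter, and it shared 6 cell barcodes with run 1 and 5 with run 3. Free RNA was read from 331 immune cells of the run (a *Ptprc* and no *Epcam* UMI, median 5933 UMIs), which should lack prostatic secretory transcripts. *Sbp*, the spermine-binding protein of the ventral lobe, had a UMI in 331 of these 331 cells. *Tgm4* had one in 22.7% and *Pbsn* in 23.6%.

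A subset of cells carried transcripts that go against their lobe label. Of the 71 castrated cells, 17 (23.9%, exact binomial interval 14.6 to 35.5%) held at least 500 *Sbp* and *Spink1* UMIs per 10000, and so did 22 of the 159 intact cells (13.8%, 8.88 to 20.2%). They are called Sbp-high cells here. Both genes encode secretory products, and 89.3% of the intact ventral (VP) RFP+ and 79.4% of the intact VP RFP- luminal cells of the same run reached this limit. In castrated VP luminal cells it was 18 of 176 RFP+ (10.2%) and 9 of 17 RFP- cells (52.9%). The share in castrated AP RFP- cells was thus above that in castrated VP RFP+ cells. Such cells were not limited to VP and AP RFP- labels. In run 2 they were 19.5% of intact and 15.4% of castrated DLP RFP- luminal cells, and 7.49% of castrated DLP RFP+ cells. Among AP RFP+ luminal cells they were 11.4% of intact and 7.51% of castrated cells. In run 3 they were 48 of 87 intact DLP RFP+ luminal cells (55.2%), the population whose barcode was skipped in run 2. No cell of either AP RFP- group lay between 300 and 1000 per 10000, so the position of the limit within that range moves no cell. The castrated Sbp-high cells lay between 1024 and 6602 per 10000, and the highest of the other castrated cells had 289 per 10000. Sbp-high cells held 50.9% of the castrated and 28.6% of the intact UMIs. Their median barcode ratio was 10 against 22.3 in the other castrated cells, while in intact cells it was 15.8 against 7.78. Under the barcode thresholds of the study 11 of 52 castrated cells were still Sbp-high, and among castrated cells with a ratio of at least 20 it was 6 of 38. In runs 1 and 3 they were 3 of 87 and 5 of 51 intact AP RFP- luminal cells. In the remaining cells *Sbp* had a median of 16.3 UMIs per 10000 in castrated and 13.8 in intact cells, under the 25.04 of immune cells. Median totals were 47194 UMIs in castrated Sbp-high cells and 11680 in the other castrated cells, and of the 4 castrated cells among the highest Scrublet doublet scores 3 were Sbp-high. Whether these cells are from another lobe, doublets or misassigned was not tested. Values are over all cells unless stated, and counts, lists and the main genes are also given over the 54 castrated and 137 intact cells that remain, a choice made after the data were seen. The plot of single cells shows the gap between both kinds.

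**Figure D1:**
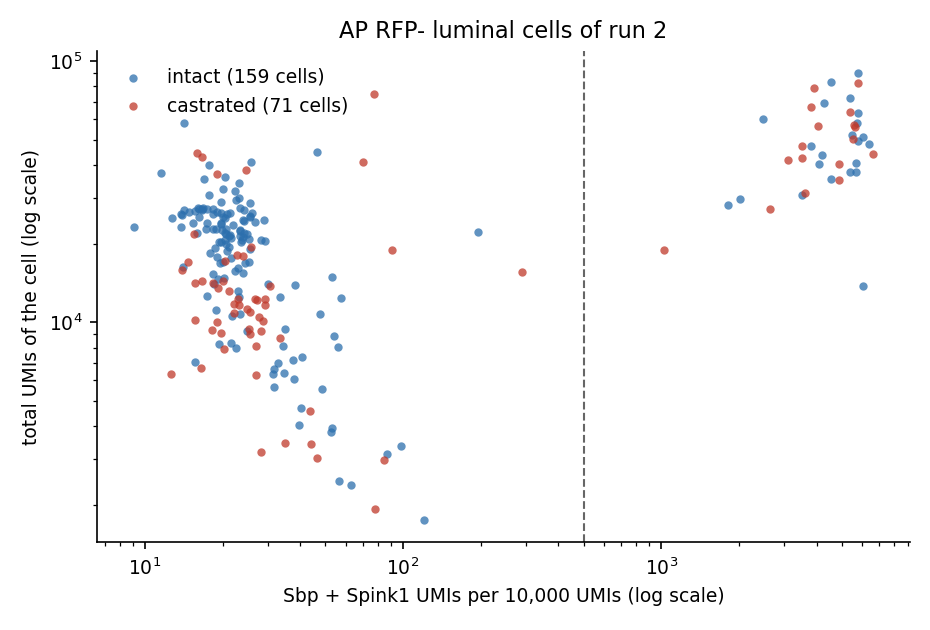
Each point is 1 AP RFP- luminal cell of run 2, with the sum of Sbp and Spink1 UMIs per 10000 on the x axis and total UMIs on the y axis (both log scales), intact cells in blue and castrated cells in red. The dashed line marks 500 per 10000, to the right of which lie 17 castrated and 22 intact cells, whose totals start at 18952 and 13810 UMIs.

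Genes were compared when they reached 50 CPM in either group and were called at a fold of 2 or more. Over all cells 2369 genes were compared, of which 128 (5.4%) were higher and 205 (8.65%) lower in castrated cells. Of these, 73 (3.08%) were also at least 2-fold higher than in each of the 3 intact runs and 149 (6.29%) at least 2-fold lower. Without Sbp-high cells 2948 genes were compared, 309 (10.5%) were higher and 294 (9.97%) lower, and 219 (7.43%) and 178 (6.04%) held against all 3 intact runs. The median log2 fold change of all genes compared was -0.15 over all cells and 0.00 without Sbp-high cells. Of the 128 higher and 205 lower genes, 120 (93.8%) and 173 (84.4%) were called again without these cells, where they made up 38.8% and 58.8% of the calls. The share of higher among called genes depended on the scaling: it was 38.4% per total UMI, 49.7% when the 50 most abundant genes were left out of the total, and 48.1% with TMM factors. The plot of CPM shows castrated against intact values for each gene.

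**Figure D2:**
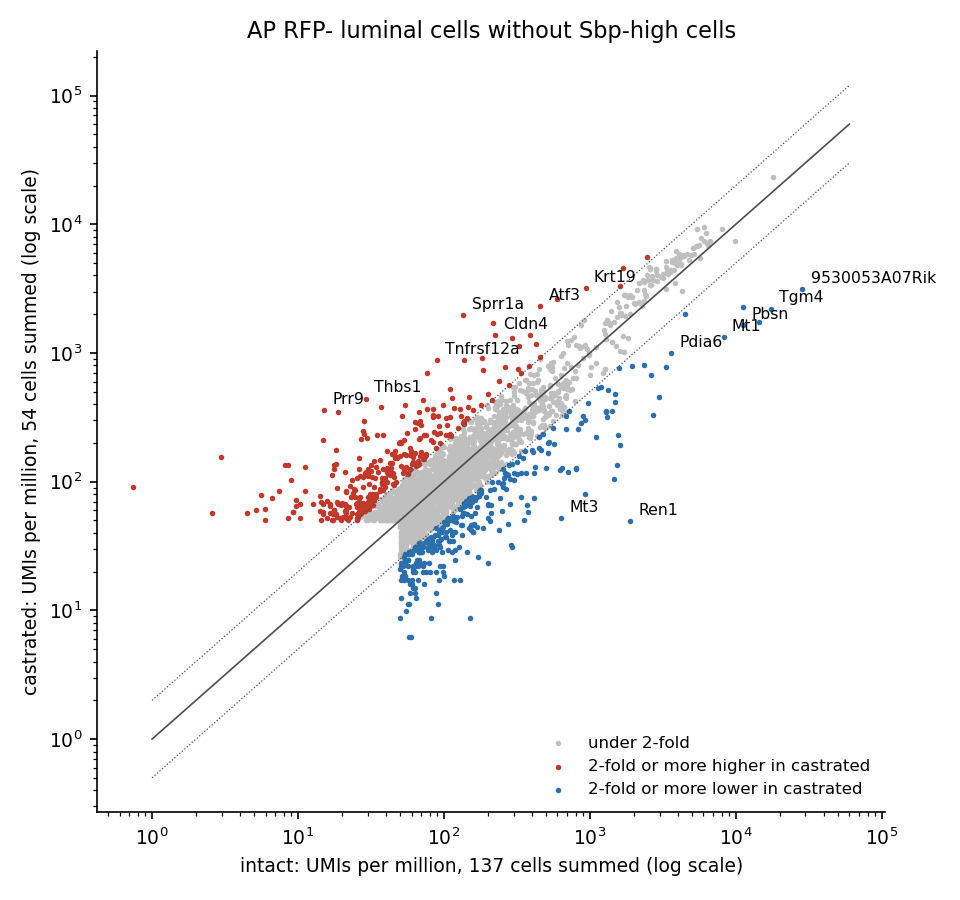
Each point is 1 gene compared without Sbp-high cells and with a UMI in both groups: CPM in the 137 summed intact cells on the x axis and in the 54 summed castrated cells on the y axis (log scales), with red for at least 2-fold higher and blue for at least 2-fold lower in castrated cells. Secretory genes such as Tgm4, Pbsn and 9530053A07Rik lie far below the diagonal at high levels, and Sprr1a, Cldn4 and Thbs1 lie above it.

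Secretory products of the AP were far lower in castrated cells. *Tgm4* (ENSMUSG00000025787, GRCm38 chr9:123034726-123067561), the prostate transglutaminase that clots seminal fluid, stood at 1122 CPM in castrated cells and at 16031, 12744 and 13604 CPM in intact cells of runs 1, 2 and 3. The castrated pool was thus below each intact pool, with a log2 fold change against run 2 of -3.51 (interval -3.57 to -3.44) and of -2.98 (-3.05 to -2.91) without Sbp-high cells. *Pbsn* (chrX:77837901-77853623), an androgen-driven lipocalin, was at 877 CPM against 10097, 8180 and 8901, a log2 fold change of -3.22 (-3.30 to -3.15), and of -2.78 without Sbp-high cells. *9530053A07Rik* (chr7:28129466-28164811) was at 1552 CPM in castrated and 32741, 21052 and 28599 CPM in intact cells. The castrated cell with the most UMIs of the gene held 41.3% for *Tgm4* and 47.9% for *9530053A07Rik*, and without Sbp-high cells the log2 fold changes were -3.78 and -4.16 when that cell's UMIs of the gene were left out (-2.98 and -3.20 with it).

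Most castrated cells had few or no *Tgm4* and *9530053A07Rik* transcripts. Without Sbp-high cells the median castrated cell had 0 *Tgm4* UMIs per 10000 against 183 in the median intact cell, and 24 of 54 castrated cells had any *Tgm4* UMI against 129 of 137 intact cells. After thinning to 3000 UMIs these shares were 28.9% of 52 castrated cells, 92.5% of 134 intact cells and 13.6% of 279 immune cells. Among the 54 castrated cells, 2 reached the lower quartile of intact cells for both *Tgm4* and *9530053A07Rik*, and these 2 held 77.0% of the *Tgm4* and 83.9% of the *9530053A07Rik* UMIs of the group. *Pbsn* remained more widespread, with a median of 9.12 UMIs per 10000 in castrated and 108 in intact cells and a UMI in 45 of 54 castrated cells. After thinning it was detected in 80.8% of castrated, 94.0% of intact and 15.8% of immune cells.

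Several of the other genes with the lowest fold changes rested on few castrated cells. *Ren1*, which encodes renin, was at 26.1 CPM in castrated and 2577, 1401 and 1667 CPM in intact cells, the lowest log2 fold change of the named genes at -5.75 (-6.22 to -5.32). In 10 of the 54 castrated cells without Sbp-high cells it had a UMI, against 99 of 137 intact cells, and 1 cell held 67.5% of the castrated UMIs. *9530003J23Rik* was at 51.6 CPM against 1828, 1076 and 1169, and 97.6% of its castrated UMIs lay in 1 cell. The complement regulator *Cd59a* (47.3 CPM against 685 in run 2) and *Gm37223* (73.4 against 1125) had log2 fold changes of -3.86 and -3.94, and *C1s2*, *Chn2* and *Cd52* of -3.71, -3.59 and -4.37, the last on 5.46 against 113 CPM. Without Sbp-high cells and the UMIs of the cell with the most of each gene, the fold changes were larger: -6.88 for *Ren1* (-5.26 with that cell), -9.20 for *9530003J23Rik* (-3.79), -4.50 for *Cd59a* (-3.53), -4.45 for *Gm37223* (-3.52), -4.08 for *C1s2* (-3.24), -3.74 for *Chn2* (-3.05) and -5.94 for *Cd52* (-4.13). *Cd52* is a leukocyte surface gene, and was the only immune marker of the list that reached 50 CPM over all cells, with 2466 CPM in the immune cells.

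*Msmb*, a secreted beta-microseminoprotein, was at 35.8 CPM against 255 in run 2, but intact cells of run 1 had 4.57 CPM and those of run 3 150, so the castrated pool lay within the intact range. *Defb50* and *Gm5615* of the secretory list were lower as well, with log2 fold changes of -1.71 and -3.45. Of 13 secretory genes compared over all cells 6 were lower and 1 higher, with a median log2 fold change of -0.20, and of 10 without Sbp-high cells 6 were lower and none higher, with a median of -2.22. The list holds *Sbp* and *Spink1*, the genes used to mark Sbp-high cells. Among all genes compared, 8.65% were lower and 5.4% higher over all cells, and 9.97% and 10.5% without Sbp-high cells.

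Other androgen-regulated genes did not move as 1 block. Of 8 genes of the androgen response list compared over all cells, 3 were higher and 2 lower (median log2 fold change -0.16). The serine protease *Tmprss2* was lower at -1.44, while *Errfi1*, *Sgk1* and *Krt19* were higher at 2.63, 1.53 and 1.31. Of these 3 higher genes only *Errfi1* was 2-fold above each of the 3 intact runs, while both lower genes were 2-fold below each. In intact run 1 *Sgk1* was at 226 CPM against 406 in castrated cells, and *Krt19* at 1144 against 1824. Without Sbp-high cells 4 of 9 were higher and 3 lower (median -0.09), and all 4 higher and 1 of the 3 lower genes held against all 3 intact runs. Shares among all genes compared were 5.4% higher and 8.65% lower over all cells, and 10.5% and 9.97% without Sbp-high cells. The plot of single cells gives the spread for 12 genes.

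**Figure D3:**
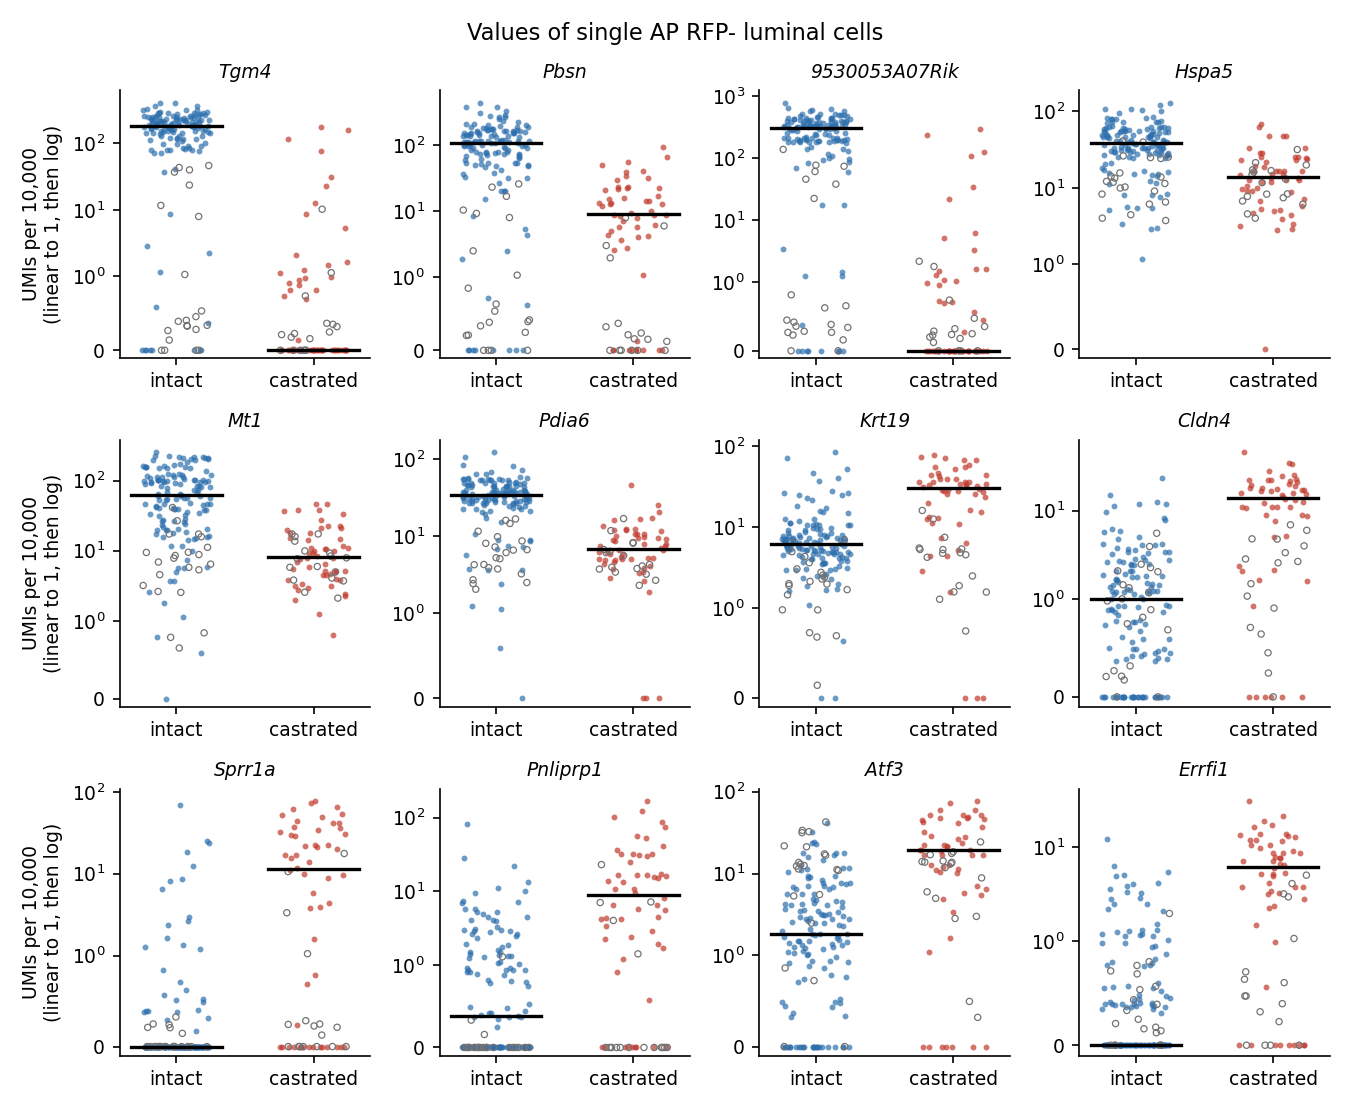
Each point is 1 AP RFP- luminal cell of run 2, with UMIs of the named gene per 10000 on the y axis (linear to 1 and log above), intact cells left and castrated cells right. Filled points are cells that are not Sbp-high, whose median is the black line, and open grey points are Sbp-high cells. Tgm4, Pbsn and 9530053A07Rik are lower and Krt19, Cldn4, Sprr1a and Atf3 higher in most castrated cells.

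Most genes compared from the zinc and metallothionein list were lower. *Mt1*, a metallothionein that binds zinc, was at 1091 CPM in castrated and 2998, 6209 and 7483 CPM in intact cells, and *Mt2* at 295 against 537, 970 and 1439. *Mt3* (log2 fold change -4.13, 26.7 against 466 CPM) and the zinc transporter *Slc30a2* (-2.65) were lower too. Without Sbp-high cells the log2 fold changes were -2.63 for *Mt1*, -1.86 for *Mt2*, -3.62 for *Mt3* and -2.50 for *Slc30a2*, and -4.48 for *Mt3* and -3.13 for *Slc30a2* when the UMIs of the cell with the most were left out. Of 5 genes of this list compared, 4 were lower and none higher, with a median of -2.51 (-2.18 without Sbp-high cells). The share lower among all genes compared was 8.65% over all cells. In the median cell without Sbp-high cells the list summed to 14.0 UMIs per 10000 in castrated and 82.5 in intact cells.

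Of the genes of the endoplasmic reticulum and its folding machinery, 17 of 39 were lower and none higher over all cells, with a median log2 fold change of -0.95. Without Sbp-high cells 24 of 39 were lower and none higher, with a median of -1.10. For comparison, 8.65% of all genes compared were lower over all cells and 9.97% without Sbp-high cells. The protein disulfide isomerase *Pdia6* was at 765 CPM in castrated and 4363, 2771 and 2461 CPM in intact cells, and the chaperone *Hspa5* at 1616 against 3950, 3684 and 3475. Without Sbp-high cells their log2 fold changes were -1.85 and -1.16. *Creld2* and *Sdf2l1* were lower at -2.17 and -2.06, and *Pdia4* at -2.06. In single cells without Sbp-high cells the list ranged from 47.1 to 404 UMIs per 10000 (median 101) in castrated cells and from 38.5 to 813 (median 328) in intact cells. The ranges overlapped, but the upper quartile of castrated cells (118) lay under the lower quartile of intact cells (276). Of 9 genes of the integrated stress response, 5 were lower and none higher, among them the asparagine synthetase *Asns* (-2.14) and *Mthfd2* (-2.66), while *Atf4* differed by 0.03. Without Sbp-high cells 5 of 10 were lower and none higher.

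Oxidative phosphorylation genes all stayed under 2-fold over all cells: none of 51 was called, with a median log2 fold change of -0.31. Without Sbp-high cells 2 of 52 were lower (*Ndufa1* and *Ndufv3*), with a median of -0.29. None of 10 citrate cycle genes was called over all cells, with a median of -0.23, and without Sbp-high cells 1 of 13, *Idh1*, was higher. These citrate counts lie near the shares of all genes compared. Those were 5.4% higher and 8.65% lower over all cells, and 10.5% and 9.97% without Sbp-high cells. *B2m*, the light chain of MHC class I, was at 726 CPM against 1299 in run 2, whereas the heavy chain *H2-K1* was at 653 against 279, and 3 of 7 genes of the class I list were higher and none lower. Without Sbp-high cells 4 of 8 were higher and 1, *B2m* (-1.06), was lower.

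*Sprr1a*, *Cldn4* and *Krt19* were higher in castrated cells. *Sprr1a* (chr3:92483952-92485895), a small proline-rich protein of the cornified envelope, was at 1053 CPM in castrated and 29.7, 98.6 and 90.9 CPM in intact cells. Its log2 fold change was 3.42 (3.25 to 3.58), and 3.87 without Sbp-high cells. It had a UMI in 39 of the 54 castrated cells and in 30 of the 137 intact cells that were not Sbp-high, and in 19 of 331 immune cells, and after thinning in 67.3%, 9.70% and 2.87% of cells. *Cldn4* (chr5:134945119-134946934), a tight junction claudin, was at 796 CPM in castrated and 382, 197 and 386 CPM in intact cells, with a median of 13.9 UMIs per 10000 in castrated and 1.01 in intact cells without Sbp-high cells. *Krt19* was at 1824 against 1144, 737 and 488 CPM. Its castrated value over all cells was under 2-fold above run 1, while without Sbp-high cells it was 3188 against 1173, 935 and 459 CPM.

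Of 11 junction genes compared, 3 were higher and 1 lower over all cells (median log2 fold change 0.61), and of 12 without Sbp-high cells 6 were higher and none lower (median 1.03). All genes compared gave 5.4% higher and 8.65% lower over all cells, and 10.5% and 9.97% without Sbp-high cells. E-cadherin (*Cdh1*) was higher at 1.24 and *Cldn8* lower at -1.43 over all cells. The proximal luminal list, genes that mark the luminal cells near the urethra, had 6 of 14 higher and none lower over all cells (median 0.26), and 6 of 16 higher and 2 lower without Sbp-high cells (median 0.61). Its higher genes included *Sprr1a*, *Cldn4*, *Ly6e*, *Clu* and *Sox9*, while its defining members *Psca* and *Krt4* stood at 141 and 23.05 CPM in castrated against 205 and 26.4 CPM in intact cells of run 2. *Psca* had a UMI in 8 of 71 castrated and 10 of 159 intact cells, and intact runs 1 and 3 had 1628 and 1.85 CPM. The cell with the most UMIs of the gene held 68.1% of the castrated UMIs for *Psca* and 44.7% for *Krt4*, and without Sbp-high cells their log2 fold changes of -0.04 and 0.23 became -1.78 and -0.73 without that cell's UMIs of the gene. One cell held 60.0% of the castrated *Clu* UMIs, and without Sbp-high cells its log2 fold change of 2.17 fell to 0.73 when that cell's *Clu* UMIs were left out.

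*Runx1*, whose promoter drives the reporter, was at 41.2 CPM in castrated and 24.6, 15.1 and 14.8 CPM in intact cells of the RFP- sort, below the 50 CPM needed to be called. Without Sbp-high cells it reached 69.2 against 18.5 CPM, a log2 fold change of 1.90 (1.33 to 2.48) on 56 and 50 UMIs. One cell held 33.9% of these castrated UMIs, and without them the log2 fold change was 1.31. It had a UMI in 20 of 54 castrated and 18 of 137 intact cells, and after thinning in 5 of 52 and 7 of 134 cells. *Lpl*, lipoprotein lipase, was at 123 CPM against 13.1, 20.6 and 16.7, and 234 against 28.1 CPM in run 2 without Sbp-high cells. *Basp1* was under 2-fold (226 against 198 CPM), and *Crym* lay under 6 CPM in both groups.

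Immediate early genes, the fast transcriptional response to growth factors and stress, were higher for a part of the list: 9 of 18 were higher and none lower over all cells (median log2 fold change 1.11), and 13 of 19 without Sbp-high cells (median 1.73). *Atf3* was at 1711 CPM in castrated and 1036, 727 and 887 CPM in intact cells, so that over all cells it passed 2-fold against run 2 but not against runs 1 and 3. Without Sbp-high cells it was at 2315 against 1055, 458 and 582 CPM, more than 2-fold above each run. *Jun* and *Fos* differed by 0.024 and 0.025. In the median cell without Sbp-high cells the list summed to 94.3 UMIs per 10000 in castrated and 40.3 in intact cells of run 2. Summed over all cells, the list was at 8238 CPM in castrated and 9539, 5389 and 6732 CPM in intact cells, so intact run 1 lay above the castrated pool. Without Sbp-high cells it was at 10150 against 9686, 5162 and 6595 CPM. Against all 3 intact runs 5 of the 9 higher genes held, and 10 of the 13 without Sbp-high cells. Of the transcription factors of the luminal list, 4 of 13 were higher and 4 lower over all cells (median -0.31), and 7 of 16 were higher and 3 lower without Sbp-high cells (median 0.37). Beside both lists, all genes compared gave 5.4% higher and 8.65% lower over all cells, and 10.5% and 9.97% without Sbp-high cells. Over all cells *Klf6* (1.27), *Klf4* (1.20), *Cebpb* (1.15) and *Klf5* (1.02) were higher, and *Ehf* (-1.55), *Gata3* (-1.52), *Gata2* (-1.38) and *Id3* (-1.32) lower. None of these 4 higher genes was 2-fold above each of the 3 intact runs, while 3 of the 4 lower genes were 2-fold below each. Without Sbp-high cells 3 of the 7 higher and 2 of the 3 lower genes held against all 3 intact runs. The plot of gene lists gives each member.

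**Figure D4:**
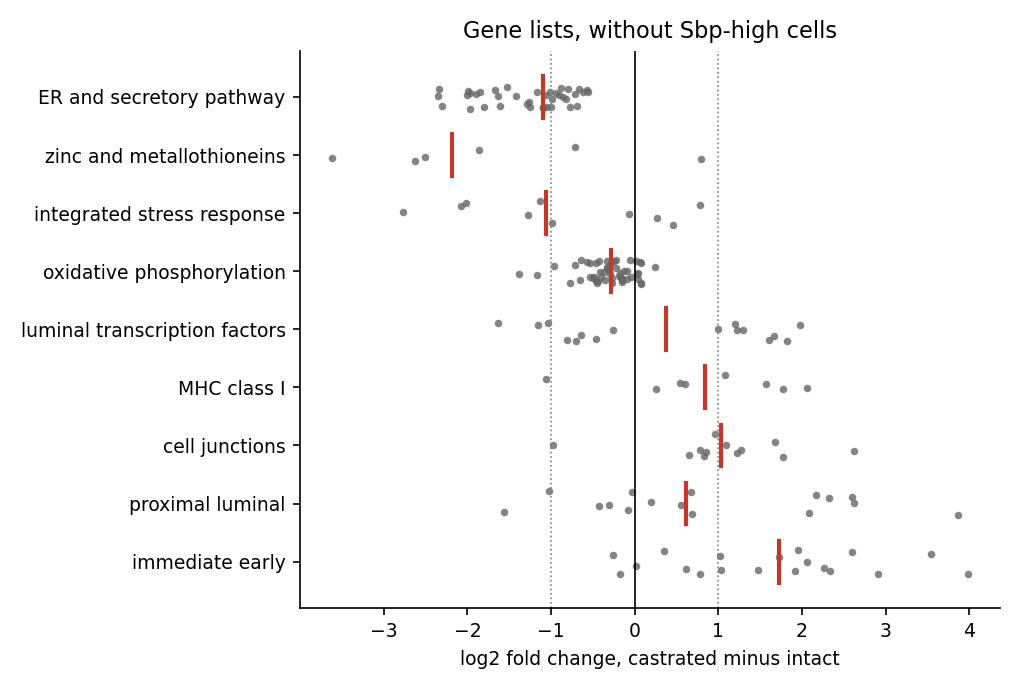
Each grey point is the log2 fold change of 1 gene, castrated minus intact, for genes of 9 lists compared without Sbp-high cells, and the red bar is the list's median. The black line is the median of all genes compared and the dotted lines mark 2-fold. The medians of the ER, zinc and stress response lists lie left of 0 and those of the immediate early and junction lists right of it.

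*Pnliprp1* (chr19:58728887-58744169), a pancreatic lipase-related protein, was at 1014 CPM in castrated and 267, 158 and 236 CPM in intact cells, with a log2 fold change of 2.68 (2.54 to 2.82). It had a UMI in 45 of 54 castrated and 74 of 137 intact cells without Sbp-high cells, and in 5 of 331 immune cells. *Thbs1*, the matrix protein thrombospondin 1, was at 226 CPM against 1.71, 21.7 and 1.85, and had a UMI in 45 of 71 castrated and 14 of 159 intact cells. *Gdf15*, a cytokine of the TGF-beta family, was at 185 CPM against 46.9, 22.2 and 13.9. The receptor *Tnfrsf12a* was at 501 CPM against 18.9, 82.5 and 36.2. The EGF receptor inhibitor *Errfi1* was at 393 CPM against 58.9, 63.7 and 194, so intact run 3 lay nearer the castrated pool. The cell cycle inhibitor *Cdkn1a* was at 208 against 40.2 CPM. Without Sbp-high cells the log2 fold changes were 2.98 for *Pnliprp1*, 3.92 for *Thbs1*, 3.40 for *Gdf15*, 3.29 for *Tnfrsf12a*, 3.19 for *Errfi1* and 3.35 for *Cdkn1a*.

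Some of these values rested on few cells. *Upk3a*, a uroplakin, was at 172 CPM against 13.5 in run 2 and 0 in runs 1 and 3, and had a UMI in 12 of 71 castrated and 2 of 159 intact cells. *Prr9* was at 181 CPM against 0, 10.8 and 0.927, with a UMI in 13 of 71 castrated cells. Without Sbp-high cells its log2 fold change was 4.57, and that of *Upk3a* was 4.21, or 3.61 without the UMIs of the cell with the most. One cell held 56.7% of the castrated *Arl14* UMIs, and without Sbp-high cells its log2 fold change of 3.83 became 2.55 without that cell's UMIs of the gene. *Scgb1b27*, a secretoglobin, had the highest log2 fold change of the genes named for size (at least 100 CPM) at 4.79, but 77.1% of its castrated UMIs lay in 1 cell, and without Sbp-high cells it had 3 UMIs in castrated and 4 in intact cells. The plot of the 20 genes shows each pool.

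**Figure D5:**
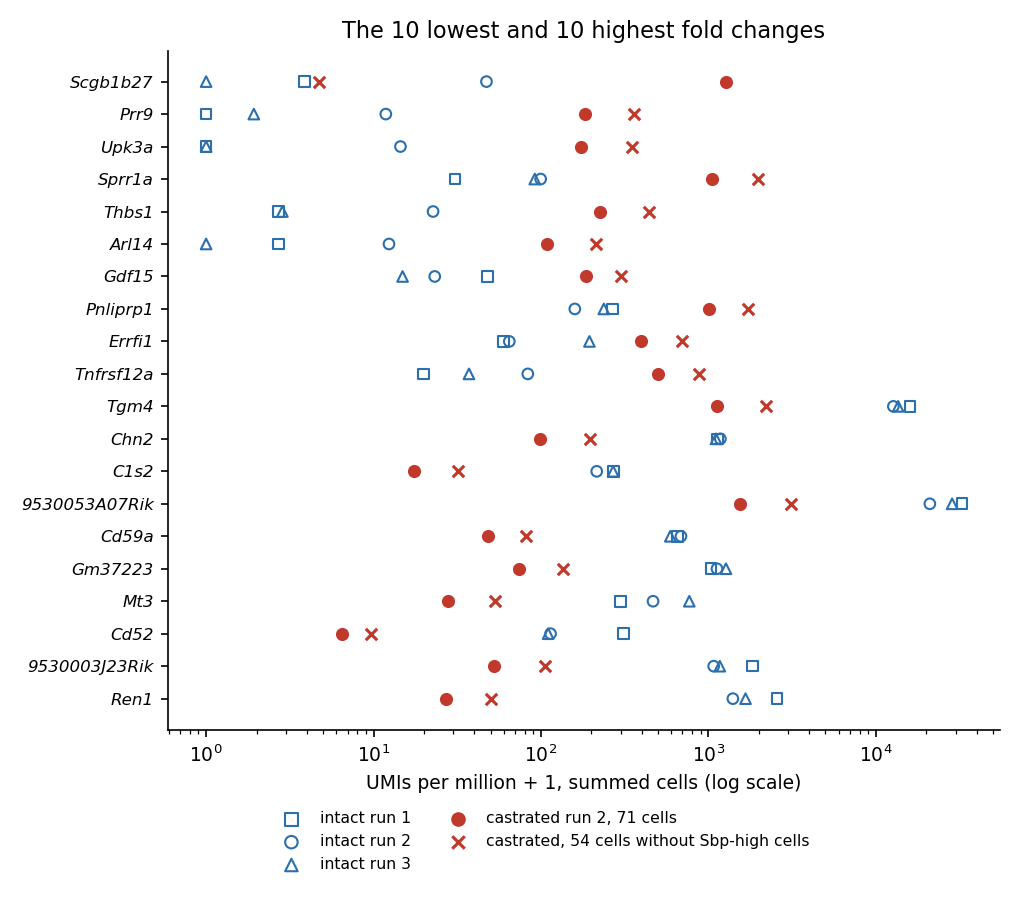
CPM plus 1 (x axis, log scale) of the 10 genes with the lowest and the 10 with the highest log2 fold change, with open blue symbols for the intact pools of runs 1, 2 and 3 and filled red points for the castrated pool. Crosses are the castrated cells without Sbp-high cells, while the blue symbols still include Sbp-high cells. The cross of Scgb1b27 falls to the range of these intact pools, and intact run 2 without Sbp-high cells was at 1.48 CPM.

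Markers of other cell types were low in both groups. Summed immune markers were 52.8 CPM in castrated and 154 in intact cells of run 2, against 29910 CPM in the immune cells, with 4 and 3 of 12 genes at 0, and endothelial markers 26.1 and 7.14. *Cd52* alone gave 5.46 of the castrated and 113 of the intact CPM of the immune sum, so the higher intact sum rests on this gene. Basal markers summed to 275 and 368 CPM, and 1 of the 3 compared, *Krt15*, was lower (-1.72). *Krt15* alone gave 66.1 of the castrated and 217 of the intact CPM, so the higher intact basal sum rests on this gene. One cell held 34.9% of its castrated UMIs. The median log2 fold change of the 3 was 0.38, and 0.76 without Sbp-high cells, where *Itga6* was higher (1.25). In the median cell without Sbp-high cells basal markers summed to 3.27 UMIs per 10000 in castrated and 1.31 in intact cells. Fibroblast markers summed to 29.1 CPM in castrated and 14.5 in intact cells of run 2, with 7 of 9 and 6 of 9 genes at 0. In intact cells of run 3 they reached 291 CPM, and seminal vesicle markers summed to 3462 CPM in intact cells of run 1 and 7.67 in run 2. The part of these cells in the comparisons with runs 1 and 3 was not tested.

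In AP RFP+ luminal cells of the same run, which carry other barcodes and share no cell with the RFP- groups, castrated and intact cells numbered 253 and 123. Without Sbp-high cells, 110 of the 295 genes that were higher in castrated RFP- cells were also higher in castrated RFP+ cells (37.3%), which made up 69.6% of the 158 higher there. Over all 2617 genes compared in both sorts, 11.3% were higher in castrated RFP- and 6.04% in castrated RFP+ cells, and 6.46% and 4.66% were lower. Of the 169 lower genes 48 were lower in both (28.4%), which is 39.3% of the 122 lower in RFP+ cells. The values side by side were -2.98 and -1.70 for *Tgm4*, -2.63 and -0.35 for *Mt1*, 2.62 and 2.02 for *Cldn4*, 2.98 and 4.80 for *Pnliprp1*, and 1.90 and -0.80 for *Runx1* (log2 fold changes in RFP- and RFP+ cells). The differences between both sorts were not tested, as each treatment was 1 pool. Because RFP+ cells were reported as more frequent after castration, the same gate may hold other cells in each treatment.

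The promoter of *Pbsn*, as the androgen-driven gene of the list, is shown with AGAACA, an arm of the androgen response element (searched on both strands), in capitals, from RefSeq on GRCm38.p6, chrX:77853451-77853750, minus strand, 5′ to 3′:
Pbsn: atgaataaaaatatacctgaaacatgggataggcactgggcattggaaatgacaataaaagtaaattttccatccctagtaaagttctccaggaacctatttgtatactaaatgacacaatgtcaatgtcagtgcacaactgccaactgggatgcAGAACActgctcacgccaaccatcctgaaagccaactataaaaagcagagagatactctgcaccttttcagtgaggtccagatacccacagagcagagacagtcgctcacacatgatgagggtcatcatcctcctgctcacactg
The window covers 250 bases before and 50 after the annotated start. The motif was found in 3 of 11 promoter windows of the 10 genes with the lowest fold changes (8 of 10 genes matched), in 1 of 11 windows of the 10 highest (9 matched), and in 18.97% of all 32851 windows. Its palindromic form, with TGTTCT after a spacer, was in 3 of all windows and in none of these 22. Most hits among the lowest genes were alternative windows of *Chn2*, and the window of *Tgm4* had none. Of the windows of genes compared without Sbp-high cells, 11.39% held the AGAACA arm. It was in 13.17% of windows of genes lower and 10.17% of genes higher against all 3 intact runs, without Sbp-high cells.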

How the data were processed

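EPCAM+ RFP+ and RFP- cells of each lobe were tagged, pooled and sequenced as 10x Genomics 3′ v3 libraries. The authors deposited raw UMI counts per gene and cell, made with Cell Ranger 3.1.0 on mm10 (GRCm38) per the submitters' processing notes, and raw counts of MULTI-seq barcodes per cell. Cells with 750 to 7500 genes and under 10% mitochondrial UMIs were kept, which leaves the library's doublets in place apart from cells with a second barcode. UMIs were summed over the cells of a group and divided by the total (CPM). Poisson, exact conditional and Clopper-Pearson intervals (95%) cover counting error only, and groups at 0 were set to 3 counts. Genes were named by a rule: the 10 highest and 10 lowest log2 fold changes with at least 100 CPM and 2-fold the same way against 3 intact runs, the 4 most abundant genes of each list, and genes fixed by name. A few items are not reported here. Other members of the lists were named after their values were seen. The members and lists were chosen with earlier results of these data known, and the step without Sbp-high cells was added after the data were seen, where limits of 500 and 1000 UMIs per 10000 select the same cells. Simulated sums were used to test the code. Alternatives used scanpy 1.11.5 (Scrublet) and edgeR 4.0.16 (TMM factors only) with numpy 2.4.6 and scipy 1.17.1. Gene coordinates are from the GENCODE annotation on GRCm38. No column of per-sample values was left unmapped. The urogenital sinus explants were not used here.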

Additional observations from a re-analysis of the deposited data

Results flagged for a closer look

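In 7 of 2617 genes compared in both sorts the log2 fold change without Sbp-high cells was at least 2-fold up in castrated RFP- and at least 2-fold down in castrated RFP+ luminal cells. They were picked for this contrast after their values were seen, each value rests on 1 pool, and the difference between sorts was not tested. Each gate may also hold other cells after castration. The tetraspanin *Tspan8* was at 368 CPM in castrated and 128 in intact RFP- cells (1.52), and at 590 and 1602 CPM in RFP+ cells (-1.44). The annexin *Anxa2* was at 232 and 103 CPM in RFP- cells (1.17) and at 444 and 1069 CPM in RFP+ cells (-1.27). The lipid droplet gene *Hilpda* gave 1.66 and -1.49, *Nlrp10* 1.77 and -1.10, *Bace2* 1.68 and -1.17, *Pam* 1.43 and -1.001, and *Tshz2* 1.07 and -1.22 in RFP- and RFP+ cells.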

How the results depend on the processing

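Against 128 higher and 205 lower genes as reported, there were 240 higher genes when the 50 most abundant genes were left out of the totals and 210 with the mean of single-cell CPM. A limit of 20 CPM gave 252 higher and 388 lower genes, and no limit 968 and 1450, where more genes were compared. Under 7500 UMIs per cell, which left 10 castrated and 19 intact cells, 348 were higher and 681 lower, and with each cell thinned to 3000 UMIs 278 and 370. The barcode thresholds of the study gave 312 lower genes, intact run 1 in place of run 2 gave 609 lower genes, and without Sbp-high cells 309 genes were higher. Against intact run 1, 18.9% of the called genes were higher. The cause of these shifts was not tested. The other settings stayed within 1.5 times of the counts reported. The 20 genes with the highest and lowest fold changes kept their sign in all 356 pairs of gene and setting and stayed at 2-fold or more in 355, the exception being *Cd52* under 7500 UMIs per cell. This includes *Scgb1b27*, whose value without Sbp-high cells rests on 3 and 4 UMIs. A part of these pairs was fixed in advance. The genes were chosen as 2-fold against each intact run, so the pairs with runs 1 and 3 could not fail. Limits on CPM change which genes are compared and not their fold change. Barcode medians over quality-filtered cells gave the same counts as reported. The pairs of all named genes below include these settings too. Over 133 named genes, 651 of 2340 pairs of gene and setting left the counting interval of the reported value and 112 of 441 list medians moved by more than the spread of the intact runs, and 12 gene pairs changed sign from a value of at least 2-fold. Under 7500 UMIs per cell these were *Clu* (-0.73), *Krt15* (0.48), *Msmb* (3.18), *Pigr* (-1.14) and *Sgk1* (-0.69). With intact run 1 they were *Eng* (-0.50), *Msmb* (2.97), *Rarg* (-0.36) and *Vim* (-0.14), and elsewhere *Areg* without *Krt5* or *Krt14* UMIs (-0.57), *Eng* without the highest Scrublet scores (-0.38) and *Pigr* after thinning (-0.13). Of the list medians, that of immune markers turned to 0.08 without a limit on CPM, and that of lobe markers to 0.11 without the highest Scrublet scores and 3.45 with intact run 1. The retinoid list had no value under 7500 UMIs per cell. No paired analysis was possible because each group is 1 pool and no result comes from a test. Depth limits genes near 50 CPM, for which the castrated sum holds few UMIs.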

Other observations

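Among genes of smaller lists that the report has not described, *Areg* and *Hbegf*, both ligands of the EGF receptor, were at 74.0 and 351 CPM in castrated against 23.8 and 143 CPM in intact cells of run 2, and *Egf* itself was at 21.8 against 77.0 CPM. *Hbegf* was at 194 and 116 CPM in intact runs 1 and 3, so over all cells it was under 2-fold above run 1. Without Sbp-high cells *Hbegf* was at 523 CPM against 197, 110 and 99.6. For *Areg*, 1 cell held 58.2% of the castrated UMIs and intact runs 1 and 3 had none. Without Sbp-high cells its log2 fold change of 2.15 became 0.82 without that cell's *Areg* UMIs. The interferon-induced *Ifitm3* was at 237 CPM in castrated against 53.7, 88.3 and 174 CPM in intact cells, and was at 968 CPM in the immune cells of the run. Of 3 interferon genes compared, 2 were higher, and 3 of 4 without Sbp-high cells, where 10.5% of all genes compared were higher. Against all 3 intact runs none of them held over all cells. Only 1, *Irf7*, held without Sbp-high cells, on 41 castrated and 46 intact UMIs. *Azin1*, the antizyme inhibitor of polyamine synthesis, was at 217 against 69.5 CPM, while 6 of 8 polyamine genes were under 2-fold. The lists for glutathione, fatty acid, cell cycle, retinoid and epithelial defense genes each had 1 gene higher and none lower over all cells, and that for cholesterol synthesis none. With at most 8 genes compared per list, 1 call cannot be set apart from the 5.4% higher among all genes compared. Without Sbp-high cells the retinoid gene called over all cells, *Crabp1*, had 3 UMIs in castrated and 5 in intact cells, the defense gene *Pigr* went from 1.45 to 0.19, and 2 of 9 fatty acid genes were higher. None of 3 apoptosis genes was called over all cells, but without Sbp-high cells *Mcl1* was higher at 326 CPM against 131 in run 2 (log2 fold change 1.32), and over all cells *Bax* was at 71.6 against 59.2 CPM.

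Without Sbp-high cells, and named after their values were seen, *Ccl5* and *Tm4sf1* were among the 10 highest fold changes, but 64.7% and 98.2% of their castrated UMIs lay in 1 cell each. Without that cell's UMIs of the gene *Tm4sf1* went from 4.05 to -1.72. *Pnliprp2*, a second lipase-related gene, was at 155 CPM in castrated and 2.96 in intact cells of run 2, on 125 and 8 UMIs.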
